A study of Mus musculus with 24 samples.

Results

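Etv2, Erg and Fli1 are the 3 transcription factors whose cDNAs were put into mouse amniotic cells by lentivirus to convert them to endothelial cells (ECs). They were taken as named, because they are the transduced Ets factors, and are 3 of 22282 genes in the expression tables. Each has 1 RefSeq transcript row, so the value of that row is also the value of the gene. All cells were from C57BL/6J mice, and 8 groups of 3 RNA sequencing libraries were made. MACs are amniotic fluid cells of E11.5-E13.5 embryos, and Akt-MACs are MACs given a lentivirus with a constitutively active, myristoylated Akt. RACVECs are MACs given the Etv2, Erg and Fli1 lentiviruses and grown in EC medium with an inhibitor of transforming growth factor-β signalling. Akt-RACVECs received the same 3 viruses and the active Akt, and Sox17-RACVECs the same 3 viruses and a Sox17 virus followed by selection with puromycin. Akt-LECs and Akt-liver ECs are ECs of lung and liver that were cultured with the active Akt, and LSECs are liver ECs purified by flow cytometry without culture. The study describes the ECs as adult, and exact ages of the donors are not given in the sources used here. The labels give no day of culture. The headers of the files mark RACVEC 2 and MAC 3 as later and name a day for RACVEC 3, so the 3 RACVECs may differ in time in culture, and groups were taken from the labels. In the vectors of the Ets factors and of Akt, the PGK promoter, which is active in most cell types, drives the cDNA. A MAC culture pools the embryos of a litter, so a library is a pool of animals. Expression is given as FPKM, fragments per kilobase of transcript scaled to the size of the library. The RNA of a virus and the RNA of the cell's own gene are counted in the same row, so an FPKM is the sum of both and they cannot be told apart.

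Ets factors share a DNA-binding domain that recognizes the core GGAA. Etv2 is needed only for a short time in the embryo, when the first endothelial and blood precursors form, and is silent in mature ECs. Fli1 and Erg are close relatives of each other that stay on in ECs, where they keep genes of junctions and of vessel identity active. Fli1 is also used by blood cells, among them macrophages and megakaryocytes.

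On mm9, the build of the files, the gene models of GENCODE M1 place all 3 genes on the minus strand. Etv2 lies on chromosome 7 from 31418635 to 31421308, Erg on chromosome 16 from 95580776 to 95808200 and Fli1 on chromosome 9 from 32229793 to 32348974. No protein-coding gene overlaps any of them. The 250 bases before the first annotated start of Etv2 and of Erg are printed here, 5′ to 3′ on the strand of the gene. They lie before an annotated start of the cell's own copies, whereas the viral copies start from the PGK promoter. Which start the cells used was not measured. Capitals mark the Ets core, GGAA, or TTCC where it is on the other strand.
Etv2, chr7:31421309-31421558: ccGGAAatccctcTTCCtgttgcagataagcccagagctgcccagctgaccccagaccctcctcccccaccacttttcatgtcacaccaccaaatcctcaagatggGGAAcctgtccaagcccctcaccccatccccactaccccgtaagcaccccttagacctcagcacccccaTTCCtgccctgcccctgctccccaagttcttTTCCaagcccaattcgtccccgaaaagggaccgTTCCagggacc
Erg, chr16:95808201-95808450: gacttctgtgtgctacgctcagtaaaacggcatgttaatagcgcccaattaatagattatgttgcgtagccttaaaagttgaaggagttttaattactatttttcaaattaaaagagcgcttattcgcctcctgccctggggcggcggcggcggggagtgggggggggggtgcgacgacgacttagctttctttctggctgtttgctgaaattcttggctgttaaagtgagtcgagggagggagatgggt
The Etv2 window holds 6 matches, and 8.97% of 22380 windows of protein-coding genes of the same length hold at least as many. The Erg window holds 0, whereas 93.1% of windows hold at least 1. GENCODE M1 has further Erg models that start inside the gene. A match of these letters describes the sequence only, and a window without them says nothing of a factor.

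Some libraries stood apart from their groups, and the values of the Ets factors moved with this. The library labelled Sox17-RACVEC 2 was the only 1 of 9 with Ets vectors in which Etv2 was listed at 0. Over all genes its log2(FPKM + 1) values correlated best with Akt-RACVEC 3 (Pearson r = 0.983), whereas Sox17-RACVEC 1 and 3 correlated best with each other (r = 0.984). The summed FPKM of 10 mesenchymal markers was 11.9 in the library labelled Sox17-RACVEC 2, with 4 of 10 above 0. It was 1392 and 2402 in the other Sox17-RACVECs, 6.04 to 548 in the Akt-RACVECs and 31.6 to 4565 in Akt-LECs. Akt1 was at 1323 FPKM in the library labelled Sox17-RACVEC 2, against 884 and 916 in the other Sox17-RACVECs, 872 to 1280.5 in Akt-RACVECs and 607 to 694 in RACVECs. Sox17 was at 40.1 FPKM in it, against 5.09 and 200.1 in the other Sox17-RACVECs and 12.01 to 83.5 in Akt-RACVECs. Akt1 did not mark every library labelled as given the active Akt, since Akt-liver EC 2 and 3 were at 559 and 656 FPKM and MACs at 551 to 692. Tests of the Ets factors in Sox17-RACVECs are given with and without the library labelled Sox17-RACVEC 2. RACVEC 2 correlated better with the mean of the 3 Sox17-RACVECs (r = 0.979) than with that of the other 2 RACVECs (r = 0.964). Akt-RACVEC 2 and 3 were also nearer to the Sox17-RACVEC mean than to their own group. Of the RACVECs, RACVEC 2 had the least Etv2 and the most Erg. Its endothelial Ets targets, listed below, summed to 10849 FPKM, against 4945 and 6004 in RACVEC 1 and 3. The summed FPKM of 9 macrophage markers was 966, 14786 and 45295 in the 3 Akt-MAC libraries, 0.79 to 14.7 in MACs and 15994 to 26263 in LSECs. LSECs also had 2214 to 12716 FPKM of hepatocyte markers and 10275 to 10897 of red cell markers. In bulk RNA, fewer cells of a type and less RNA per cell cannot be told apart. The endothelial labels were checked against the summed FPKM of 9 endothelial markers, which was 1553 to 19580 in the libraries with Ets vectors, 6262 to 18447 in ECs and 8.11 to 55.6 in MACs and Akt-MACs. Of the 9 markers, 8 or 9 were above 0 in every library with Ets vectors, 9 in every EC library, 6 or 7 in Akt-MACs and 4 or 5 in MACs.

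Etv2 was found only in cells given its virus, and in all of them but 1. The 3 RACVEC libraries had Etv2 at 859.9, 301 and 659 FPKM. The Akt-RACVECs had 127, 572 and 289 FPKM. The Sox17-RACVECs had 458, 0 and 378 FPKM. All 15 libraries without the Ets vectors, ECs included, were listed at 0 for Etv2. In the 8 libraries in which it was present, Etv2 was above 75.4% to 97.8% of the genes with an FPKM above 0. An FPKM listed at 0 can be a failed estimate, but 8 housekeeping genes were above 0 in every library, the lowest at 38.4 FPKM.

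Differences were tested with limma over the 14964 genes whose mean FPKM was 1 or more, and called where the adjusted p was under 0.05 and the log2 difference past 1 or -1. Relative to MACs, Etv2 was called higher in RACVECs (adjusted p = 0.00121) and, relative to Akt-MACs, in Akt-RACVECs (adjusted p = 0.000859). No fold change is given, because the group without the virus is at 0. In Sox17-RACVECs against MACs, Etv2 was called at adjusted p = 0.0128, and at 6.70e-09 without the library labelled Sox17-RACVEC 2. This call was lost without Sox17-RACVEC 1 (adjusted p = 0.0677) or without Sox17-RACVEC 3 (adjusted p = 0.0724), where the library at 0 is 1 of the remaining pair, and in a fit of the 2 groups alone (0.292). Against the mean of the cultured ECs, Akt-LECs and Akt-liver ECs, the mean of the 3 groups with Ets vectors was called higher for Etv2 (adjusted p = 0.000229), beside 0.548% of all genes. Against Akt-LECs alone, Etv2 was called higher in RACVECs (adjusted p = 0.0100), beside 0.0267% of all genes, and this was lost without RACVEC 1 (0.0518), RACVEC 3 (0.0673) or Akt-LEC 2 (0.0678). It was not called in Akt-RACVECs (adjusted p = 0.0837, and 0.0333 without Akt-LEC 3) or in Sox17-RACVECs (adjusted p = 0.188, and 1.02e-08 without the library labelled Sox17-RACVEC 2), where 0.00668% and 0.0735% of all genes were called in either direction.

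Among the groups with Ets vectors the levels of Etv2 overlapped. The mean was highest in RACVECs, at 607 ± 283 FPKM (SD, n = 3), followed by Akt-RACVECs at 330 ± 225 FPKM (SD, n = 3), with libraries of the 2 groups intermixed. Sox17-RACVECs had a mean of 279 FPKM, and 418 FPKM, above Akt-RACVECs, without the library labelled Sox17-RACVEC 2. The log2 difference on the log2(FPKM + 1) scale, Akt-RACVECs minus RACVECs, was -1.003 with a 95% interval from -3.96 to 1.96 (limma, adjusted p = 0.818). Sox17-RACVECs differed from RACVECs by -3.32 on the log2 scale (standard error 1.41, adjusted p = 0.692) and by -0.41 without the library labelled Sox17-RACVEC 2. The interval and standard error given here use the spread shared by all 8 groups, some of which were at 0 throughout. In fits of the 2 groups alone the standard error was 0.70 for Akt-RACVECs against RACVECs and 2.66 for Sox17-RACVECs against RACVECs.

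**Figure D1:**
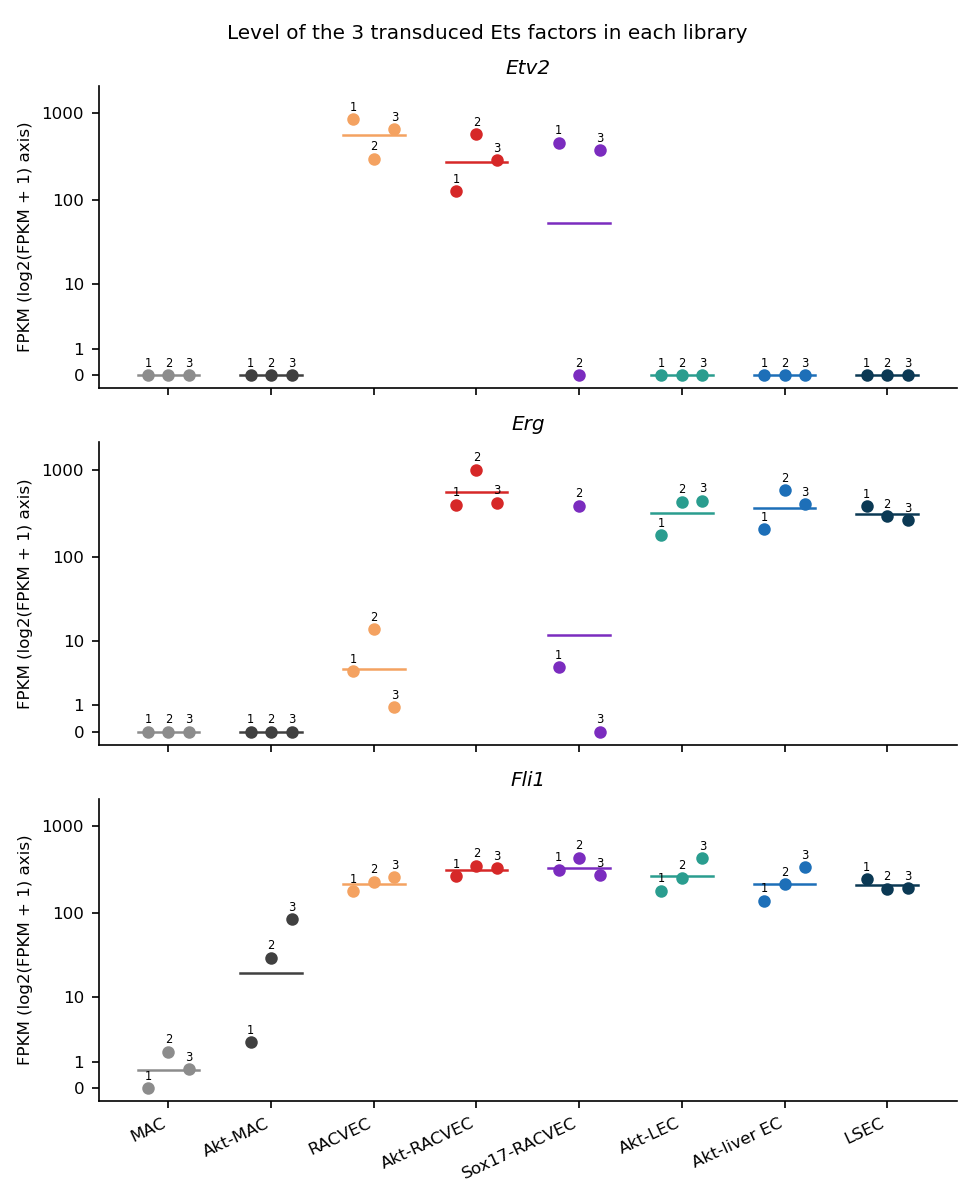
FPKM of Etv2, Erg and Fli1 in each of the 24 libraries, on a log2(FPKM + 1) axis labelled in FPKM; points are libraries with their replicate number and bars are means of the log2 values of 3 libraries. Etv2 is above 0 in 8 of 9 libraries with Ets vectors and in 0 of 15 others, Erg is near 0 in RACVECs and high in Akt-RACVECs and ECs, and Fli1 is between 178 and 434 FPKM in all 9 libraries with vectors.

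Erg, although it was in the same set of viruses, was near 0 in most of the cells without added Akt. MACs and Akt-MACs were listed at 0 for Erg in all 6 libraries. RACVECs had Erg at 3.91, 13.8 and 0.90 FPKM, which is above 4.81% to 26.8% of the genes present in the library. Sox17-RACVECs had 4.49, 387 and 0 FPKM, where the 387 is in the library labelled Sox17-RACVEC 2. Akt-RACVECs had 395, 1002 and 418 FPKM, above 92.9% to 98.0% of the genes present. No library with Ets vectors lay between 13.8 and 387 FPKM of Erg. By quantitative PCR, the study reported Erg as induced in RACVECs relative to MACs, though lower or more variable than in Akt-LECs. It also reported by that method that transcripts of the Ets factors were unaltered by Akt. The FPKM of Erg were likewise higher in all 3 RACVECs than in MACs and lower than in Akt-LECs. Neither difference was called (limma adjusted p = 0.330 and 0.0621). The FPKM differ from the report on Akt, since Erg was higher in every Akt-RACVEC library than in any RACVEC library. The reason was not tested.

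ECs of both tissues expressed their own Erg without an Ets virus, although the cultured ones carried the active Akt. Akt-LECs had 176, 427 and 442 FPKM, Akt-liver ECs 205, 583 and 399 FPKM, and LSECs 383, 292 and 260.8 FPKM. The 9 EC libraries thus ranged from 176 to 583 FPKM of Erg with a median of 383. Of the Akt-RACVECs, 2 libraries lay inside this range and Akt-RACVEC 2 above it. The lowest value in each cultured EC group was that of library 1, and library 1 of both groups also carried mesenchymal markers, 4565 FPKM in sum in Akt-LEC 1 and 2615 in Akt-liver EC 1, against 31.6 to 145 in the other 4 libraries. The macrophage markers summed to 1608 and 1252 FPKM in the same libraries and to between 0 and 18.6 in the other 4. The part of these cells in the lower Erg was not tested.

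Relative to RACVECs, the Akt-RACVECs had Erg called higher by 6.73 on the log2(FPKM + 1) scale (standard error 1.31, limma adjusted p = 0.0363), and the libraries of the 2 groups did not overlap. Of all genes tested, 0.221% were called higher in this comparison, and Erg was the only 1 of the 3 Ets factors called. The mesenchymal markers summed to 1606 to 7057 FPKM in RACVECs and to 6.04 to 548 in Akt-RACVECs, all 10 being above 0 in every RACVEC library, and the endothelial markers to 1553 to 2830 and 11636 to 19580 FPKM. The part of cells that kept mesenchymal markers in the difference of Erg was not tested. The call was lost without RACVEC 1 (adjusted p = 0.151), RACVEC 3 (0.130), Akt-RACVEC 1 (0.0501), Akt-RACVEC 2 (0.102) or Akt-RACVEC 3 (0.0761) and in a fit of the 2 groups alone (0.108), and the log2 difference was between 6.01 and 7.49 in all fits with 1 of the 6 libraries left out. Relative to Akt-MACs, Erg was called higher in Akt-RACVECs (adjusted p = 0.000191), and relative to MACs it was not called in RACVECs (adjusted p = 0.330). In Sox17-RACVECs against MACs the adjusted p of Erg was 0.0719, 0.294 without the library labelled Sox17-RACVEC 2 and 0.00804 without Sox17-RACVEC 3. The difference between the Akt effect with and without Ets vectors, which here equals the 6.73 because both MAC groups are at 0, was not called (standard error 1.85, adjusted p = 0.136), in a comparison where 0.00668% of all genes were called higher.

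Against Akt-LECs, Erg differed by -5.96 in RACVECs (standard error 1.31, limma adjusted p = 0.0621) and by 0.77 in Akt-RACVECs (95% interval from -1.98 to 3.52, adjusted p = 0.923), on the log2(FPKM + 1) scale. In Sox17-RACVECs the difference was -4.65 (adjusted p = 0.316), and -7.11 without the library labelled Sox17-RACVEC 2, which was then called (adjusted p = 7.48e-05). The mean of the 3 groups with vectors was called lower than that of the cultured ECs, by -3.37 (standard error 0.85, adjusted p = 0.0350). Without the library labelled Sox17-RACVEC 2 this was -4.19 (adjusted p = 5.11e-05). It was lost when 1 of 10 libraries was left out, namely RACVEC 1 (0.0505) or 3 (0.0697), Akt-RACVEC 1 (0.0601) or 3 (0.0581), Sox17-RACVEC 1 (0.0623), Akt-LEC 1 (0.0526), 2 (0.0879) or 3 (0.0513), or Akt-liver EC 2 (0.0742) or 3 (0.0875), and in a fit of the 5 groups alone (0.153). Of all genes, 2.10% were called lower in this comparison. Among the EC groups, Erg differed by -0.17 between Akt-LECs and Akt-liver ECs (95% interval from -2.92 to 2.57) and by 0.24 between Akt-liver ECs and LSECs (95% interval from -2.51 to 2.98). Of all genes, 0.0134% were called in the first and 27.0% in the second of these comparisons, and Erg in neither. The standard errors and intervals of Erg given here use the spread shared by all 8 groups. In a fit of the 2 groups alone the standard error was 0.55 for Akt-RACVECs against Akt-LECs.

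Fli1 was the most even of the 3 in the cells with Ets vectors. RACVECs had Fli1 at 178, 229 and 257 FPKM, Akt-RACVECs at 268, 352 and 328 FPKM and Sox17-RACVECs at 315, 434 and 272 FPKM. The library labelled Sox17-RACVEC 2 has the 434, the highest Fli1 of any library. The 9 EC libraries had Fli1 between 139 and 426 FPKM with a median of 214, and the 9 libraries with vectors between 178 and 434 FPKM with a median of 272. In detail, Akt-LECs had 181, 255 and 426 FPKM, Akt-liver ECs 139, 214 and 337 FPKM and LSECs 248, 191 and 195 FPKM. The lowest Fli1 in each cultured EC group was again that of library 1, beside the mesenchymal and macrophage markers given above.

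The amniotic cells without Ets vectors were not all without Fli1. MACs had Fli1 at 0, 1.61 and 0.65 FPKM and Akt-MACs at 2.36, 30.2 and 84.4 FPKM. The order of the Akt-MAC libraries in Fli1 was also their order in macrophage markers, 8 of 9 of which were above 0 in Akt-MAC 2 and 3. Adgre1, a surface receptor that marks macrophages, was at 56.6, 1648 and 4105 FPKM in the 3 libraries, and Csf1r, the receptor for the macrophage growth factor, at 13.46, 349 and 1161 FPKM. Spi1, an Ets factor that drives the macrophage lineage, was at 11.4, 491 and 1151 FPKM. The Kupffer cell marker Clec4f was listed at 0 in all 3. The endothelial markers summed to 23.7 to 55.6 FPKM in the Akt-MACs and to 8.11 to 33.8 in MACs. The part of macrophages in the Fli1 of the Akt-MACs was not tested.

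**Figure D2:**
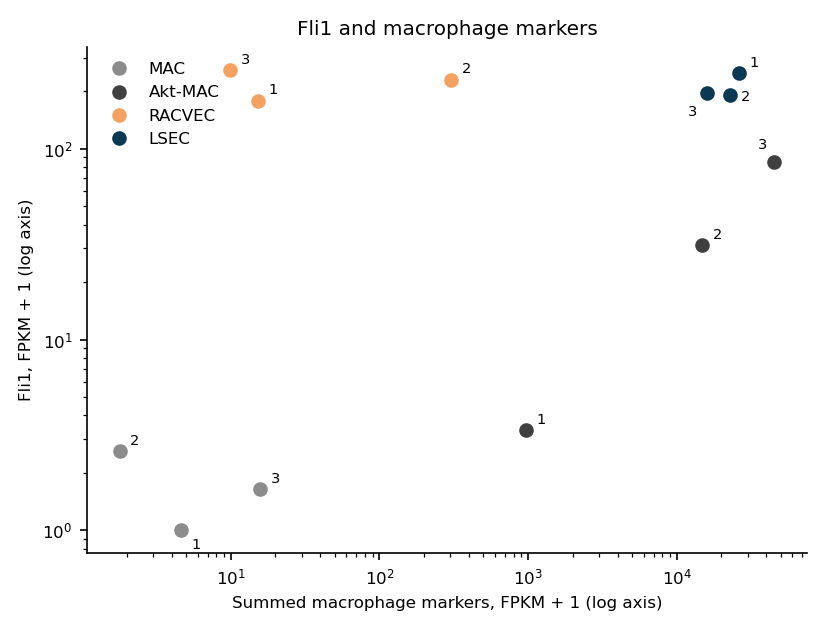
Fli1 FPKM + 1 against the summed FPKM + 1 of 9 macrophage markers, both on log axes, in the libraries of MACs, Akt-MACs, RACVECs and LSECs; numbers are replicates. Akt-MAC 1, 2 and 3 lie in order on both axes, whereas RACVECs have Fli1 of 178 to 257 FPKM at marker sums of 8.95 to 304 FPKM.

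Relative to MACs, Fli1 was called higher in RACVECs by 7.08 on the log2(FPKM + 1) scale (standard error 0.73, limma adjusted p = 1.58e-05), and in Sox17-RACVECs by 7.69 (standard error 0.73, adjusted p = 2.53e-06) or by 7.497 without the library labelled Sox17-RACVEC 2 (adjusted p = 3.71e-05). Etv2 and Fli1, 2 of the 3 factors, were thus called higher in RACVECs, beside 1.36% of all genes tested. In Sox17-RACVECs the same 2 were called, beside 3.81% of all genes. Relative to Akt-MACs, all 3 factors were called higher in Akt-RACVECs, beside 6.15% of all genes. There the difference of Fli1 was 3.92 (standard error 0.73, limma adjusted p = 0.00140, and 0.109 in a fit of the 2 groups alone). It was 6.55 when Akt-MAC 2 and 3 were left out (adjusted p = 4.84e-07), an alternative chosen after seeing the data in which the lone Akt-MAC library is assumed to vary like the other groups.

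Fli1 was called higher in Akt-MACs than in MACs, by 3.67 (standard error 0.73, limma adjusted p = 0.0109). Of all genes, 2.59% were called higher in this comparison. The call was lost without Akt-MAC 2 (adjusted p = 0.0724) and in a fit of the 2 groups alone (0.515), and with Akt-MAC 2 and 3 left out the difference was 1.05 (adjusted p = 1.0). The Akt effect on Fli1 with against without Ets vectors was -3.16 (standard error 1.03, limma adjusted p = 0.205), beside 0.0936% of all genes called lower, and the adjusted p was 0.000426 without Akt-MAC 1. Between groups with Ets vectors no difference of Fli1 was called. All RACVECs (178 to 257 FPKM) nevertheless lay below all Akt-RACVECs (268 to 352 FPKM) and all Sox17-RACVECs (272 to 434 FPKM). In fits of the 2 groups alone, the standard error was 0.19 for Akt-RACVECs against RACVECs (limma adjusted p = 0.330). For Sox17-RACVECs against RACVECs it was 0.24 (limma adjusted p = 0.782). The intervals that follow use the spread shared by all 8 groups. Akt-RACVECs minus RACVECs gave 0.52 (95% interval from -1.01 to 2.05) and Sox17-RACVECs minus RACVECs 0.61 (95% interval from -0.92 to 2.14), or 0.42 without the library labelled Sox17-RACVEC 2.

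Against the ECs no difference of Fli1 was called in any comparison. The 3 groups with vectors against the cultured ECs gave a log2 difference of 0.24 with a 95% interval from -0.75 to 1.22 (limma, adjusted p = 0.866), and 0.17 without the library labelled Sox17-RACVEC 2. For the single groups against Akt-LECs the differences were -0.30 in RACVECs, 0.22 in Akt-RACVECs and 0.31 in Sox17-RACVECs, each with a standard error of 0.73. The value in Sox17-RACVECs was 0.12 without the library labelled Sox17-RACVEC 2. In the order of group means, Sox17-RACVECs, Akt-RACVECs, Akt-LECs, Akt-liver ECs, RACVECs and LSECs each overlapped the next, and Akt-MACs and MACs were below them with no overlap. Without the library labelled Sox17-RACVEC 2, Sox17-RACVECs came second for Fli1 (mean 294 FPKM), after Akt-RACVECs (316 FPKM). For Erg the order was Akt-RACVECs, Akt-liver ECs, Akt-LECs, LSECs, Sox17-RACVECs and RACVECs, each overlapping the next, and then MACs and Akt-MACs at 0. This order turned without the library labelled Sox17-RACVEC 2, where Sox17-RACVECs (mean 2.25 FPKM) came below RACVECs (6.21 FPKM), and both were below LSECs with no overlap.

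The proportion of Erg to Fli1 within a library depends little on how the library was scaled, but where Erg is near 0 it depends on the constant added. In the 9 EC libraries the log2 ratio, with 1 FPKM added to each value, was between -0.03 and 1.44, that is, about equal amounts or somewhat more Erg. In Akt-RACVECs it was 0.56, 1.51 and 0.35, inside or just above the range of ECs. In RACVECs it was -5.18, -3.96 and -7.09. In Sox17-RACVECs it was -5.85, -0.16 and -8.09, with the -0.16 in the library labelled Sox17-RACVEC 2. The mean over the 9 libraries with vectors was -3.10 ± 3.68 (SD, n = 9) and over the 6 cultured EC libraries 0.50 ± 0.55 (SD, n = 6), a difference of -3.60 (exact permutation test, two-sided, p = 0.0464). With 0.1 or 10 FPKM added instead, the difference was -4.14 or -2.57, and the lowest ratio was -11.4 or -4.82. The p with 1 FPKM added takes 9 libraries of 3 differently treated groups as replicates of 1 condition. They fall widely apart by group, so the pooled mean and this p describe no single group. It was 0.0440 without the library labelled Sox17-RACVEC 2, and rose to between 0.0559 and 0.0909 in this exact test without RACVEC 1, 2 or 3, Sox17-RACVEC 1 or 3, or any 1 of the 6 EC libraries.

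**Figure D3:**
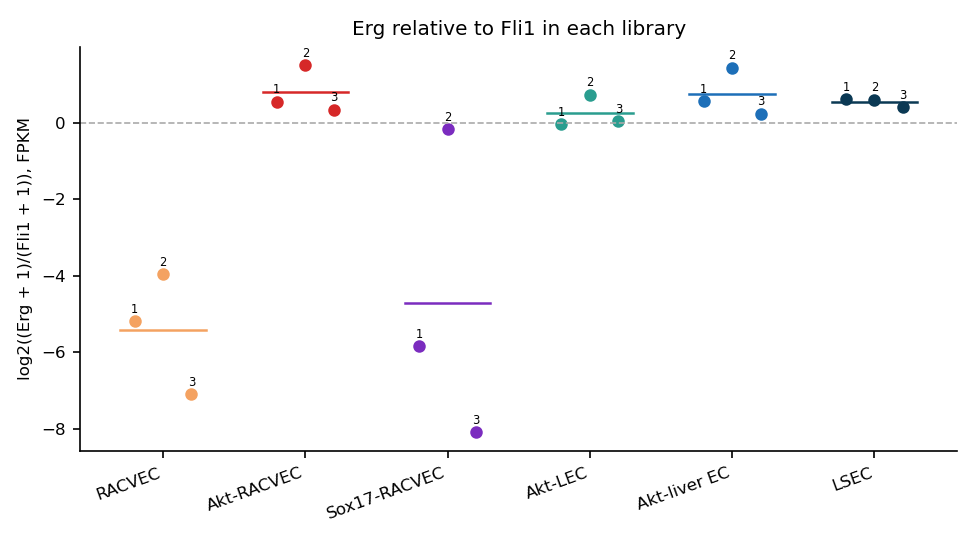
log2 ratio of Erg to Fli1, (FPKM + 1) over (FPKM + 1), in each library of the groups with Ets vectors and of ECs; points are libraries with their replicate number, bars are group means and the dashed line marks equal amounts. RACVECs and Sox17-RACVEC 1 and 3 lie between -8.09 and -3.96, and all other libraries between -0.16 and 1.51.

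The length of the transcript model bears on how far FPKM of a cDNA can be compared between the 3 genes. It bears likewise on comparing cells with vectors and ECs for the same gene, as was done for Fli1. A cDNA with only the coding part of a gene fills only part of the model, and its FPKM is then lower than its amount per length. In GENCODE M1 the coding part is 1008 of 1485 bases (67.9%) in the longer Etv2 model and all of the shorter one. It is 1359 of 3108 bases (43.7%) in the only Fli1 model and 43.7% to 86.9% of the 7 Erg models. Whether the viral cDNAs held more than the coding part is not given in the sources used here.

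The nearest measured protein-coding gene on each side was taken to describe the chromosome region of each factor's own copy. Beside Etv2, Cox6b1, a subunit of cytochrome c oxidase, and Rbm42, an RNA-binding protein, lie 7464 and 4704 bases away. Cox6b1 was at 680.4 to 1234 FPKM with Ets vectors, 947 to 1235 in MACs and Akt-MACs and 627 to 1478 in ECs. Rbm42 was at 171 to 263 FPKM with Ets vectors, 138 to 251 in MACs and Akt-MACs and 169 to 243 in ECs. Both were thus present at similar levels whether Etv2 was at 0 or at 859.9 FPKM.

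Beside Erg, Kcnj15, a potassium channel, was at 65.8 FPKM in RACVEC 1 and at most at 37.1 in the others. On the other side, 115481 bases from Erg, lies Ets2, another Ets factor. Ets2 was at 56.8, 70.9 and 114 FPKM in RACVECs and at 715, 881 and 477 FPKM in Akt-RACVECs. It was at 169, 920.3 and 56.9 FPKM in Sox17-RACVECs, with the 920.3 in the library labelled Sox17-RACVEC 2. The libraries with the most Ets2 among those with vectors were therefore those with the most Erg. Ets2 was at 27.3 to 258 FPKM in MACs and Akt-MACs, where Erg was at 0, and at 216 to 1359 FPKM in ECs.

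Beside Fli1, Kcnj1, another potassium channel, was listed at 0 in all 24 libraries. Ets1, an Ets factor of ECs and lymphocytes, lies 94831 bases on the other side. Ets1 was at 67.0 to 386 FPKM with Ets vectors, 38.2 to 281 in MACs and Akt-MACs and 195 to 1272 in ECs. Ets1 was thus present in MACs, at 59.5 to 113 FPKM, in which Fli1 was at most 1.61 FPKM.

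**Figure D4:**
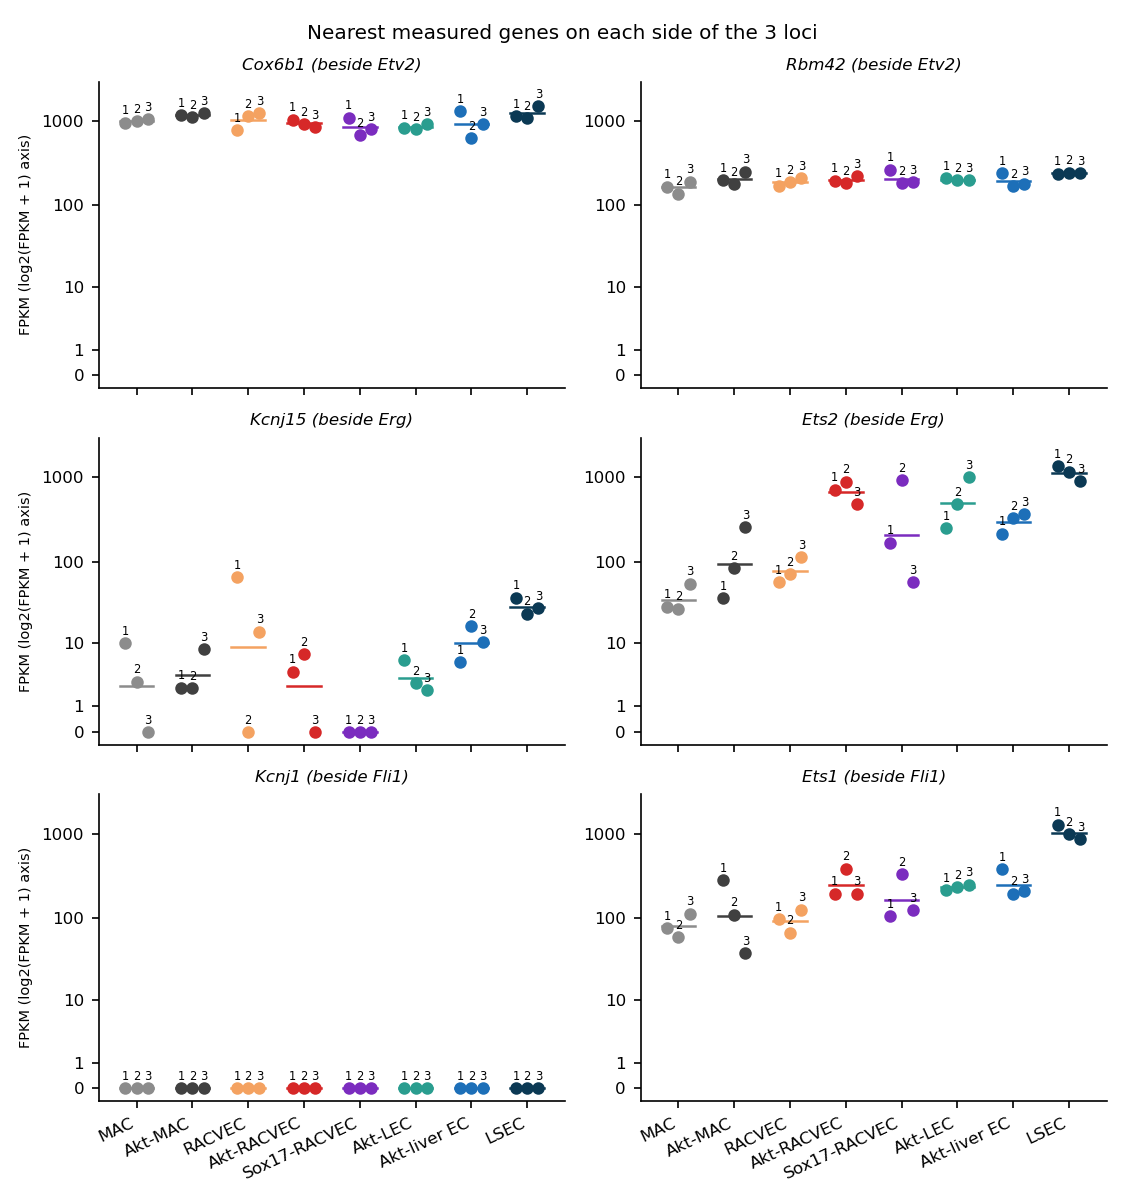
FPKM, on a log2(FPKM + 1) axis labelled in FPKM, of the nearest measured protein-coding gene on each side of Etv2, Erg and Fli1; points are libraries with their replicate number and bars are means of the log2 values of 3 libraries. Ets2 beside Erg is high in Akt-RACVECs and in the library labelled Sox17-RACVEC 2, and the genes beside Etv2 are at similar levels in every group.

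Of 34 endothelial genes known as targets of Ets factors, limma called 17 higher and 0 lower in RACVECs relative to MACs (24 higher and 0 lower at an unadjusted p under 0.05), beside 1.36% of all genes called higher. Their median log2 difference on the log2(FPKM + 1) scale was 4.201, against 0 over all genes. Cdh5, which encodes VEcad of the junctions between ECs, was at 863, 1531 and 1887 FPKM in RACVECs and at 0.82 to 1.87 in MACs, a log2 difference of 9.22 (standard error 0.48, limma adjusted p = 1.92e-09). Sox18, a factor of early vessels, was at 289.7, 1175 and 329.8 FPKM in RACVECs and rose by 8.54 (standard error 0.68, adjusted p = 8.79e-07). Egfl7, a protein that ECs secrete, rose by 4.64 (standard error 0.55, adjusted p = 8.36e-05). The count was 9 without RACVEC 2, 17 was the highest with any library left out, and in a fit of the 2 groups alone it was 4. The list was put together with results of these data known and is no independent evidence of their direction.

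In Akt-RACVECs against Akt-MACs, 27 of the 34 genes were called higher and 0 lower in limma (30 and 0 at an unadjusted p under 0.05), beside 6.15% of all genes, with a median of 5.24 against -0.09 over all genes. With Akt-MAC 2 and 3 left out the count was 20. In the same comparison 3 of 10 mesenchymal markers were called lower (median -4.41) and 7 of 9 macrophage markers (median -7.53), beside 13.4% of all genes, and their part in the list's change was not tested. In Sox17-RACVECs against MACs 23 were called higher and 0 lower in limma (26 and 0 at an unadjusted p under 0.05), beside 3.81% of all genes, with a median of 5.08. The count was 22 without the library labelled Sox17-RACVEC 2 and 15 in a fit of the 2 groups alone. The median difference of the 10 mesenchymal markers was -4.197, against 0 over all genes. Sox17 is in the list and was also transduced in these cells. The library labelled Sox17-RACVEC 2 was nearer to the mean of Akt-RACVECs than to the mean of the other Sox17-RACVECs in 31 of the 34 genes, or 91.2%, and in 61.6% of all genes.

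In Akt-RACVECs against RACVECs, 5 of the 34 genes were called higher and 0 lower in limma (21 and 0 at an unadjusted p under 0.05), beside 0.221% of all genes. Their median difference was 2.05, against 0 over all genes. Pecam1, the adhesion molecule CD31, was at 84.1, 155 and 15.3 FPKM in RACVECs and 3649, 6524 and 4132 FPKM in Akt-RACVECs, a log2 difference of 6.26 (standard error 0.94, limma adjusted p = 0.0101). Emcn, a sialoprotein of the EC surface, differed by 4.91 (adjusted p = 0.0423), and Tal1, a factor of blood and vessel precursors, by 3.53 (adjusted p = 0.0411). Lyl1, a relative of Tal1, and Sox17 were listed at 0 in all 3 RACVECs, and in Akt-RACVECs Lyl1 was at 107, 62.1 and 124 FPKM and Sox17 at 12.01, 83.5 and 82.2 FPKM (adjusted p = 0.0348 and 0.0423). The 5 calls became 2 without RACVEC 1, 1 without RACVEC 3, 2 without Akt-RACVEC 1, 0 without Akt-RACVEC 2 and 1 without Akt-RACVEC 3. In a fit of the 2 groups alone 1 was called, and with a pseudocount of 10 there were 10. The median difference of the 10 mesenchymal markers was -4.85, against 0 over all genes. In Sox17-RACVECs against RACVECs limma called 0 of the 34 (12 higher and 0 lower at an unadjusted p under 0.05), beside 0.00668% of all genes, with a median of 1.32. The count was also 0 without the library labelled Sox17-RACVEC 2, and 2 without RACVEC 2.

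Several of the 34 genes were high in the same 4 libraries with vectors as Erg, a description with no test. Nos3, the endothelial nitric oxide synthase, was at 898, 62.3 and 444 FPKM in Akt-RACVECs and 819 FPKM in the library labelled Sox17-RACVEC 2. In the other 5 libraries with vectors Nos3 was at 0 to 2.46 FPKM. Tek, the angiopoietin receptor, was at 208 to 416 FPKM in those 4 libraries and at 3.67 to 27.9 in the other 5. Mef2c, a factor for vessel and muscle genes, was at 77.9 to 156 FPKM in the 4 and 6.80 to 19.7 in the 5. Cdh5 was also higher in the 4 but by less, at 2008 to 3887 FPKM against 863 to 1937 in the 5. Ecscr, an EC receptor, overlapped, at 859 to 1275 FPKM in the 4 and 599 to 1138 in the 5. Cldn5, the claudin of tight EC junctions, was high only in Akt-RACVEC 2, at 3543 FPKM, and at 0 to 23.9 FPKM in the other 8 libraries with vectors. In the EC libraries Cldn5 was at 475 to 4603 FPKM.

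Against the cultured ECs, 2 of the 34 genes were called lower in the mean of the 3 groups with vectors, Cldn5 by -7.70 (standard error 1.19, limma adjusted p = 0.00135) and Emcn by -3.31 (standard error 0.65, adjusted p = 0.00767), beside 2.10% of all genes. In RACVECs against Akt-LECs 4 were called lower, Pecam1, Emcn, Tal1 and Sox17, beside 0.234% of all genes. These 4 became 1 without RACVEC 1, 0 without RACVEC 3, 0 without Akt-LEC 2, 1 without Akt-LEC 3 and 0 in a fit of the 2 groups alone. In Akt-RACVECs against Akt-LECs limma called 0 of the 34 (0 higher and 2 lower at an unadjusted p under 0.05), beside 0.00668% of all genes, with a median of 0.13.

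**Figure D5:**
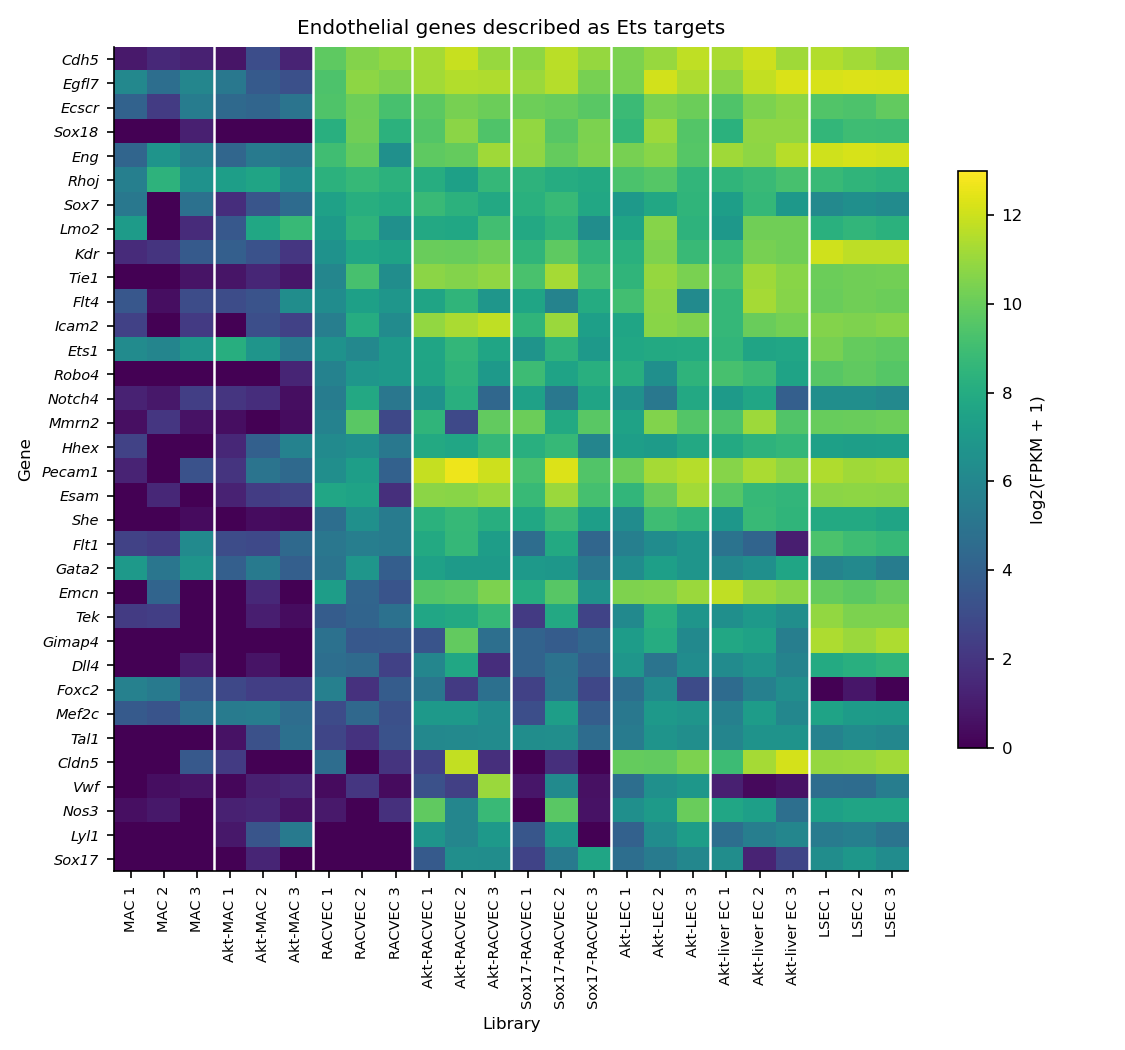
log2(FPKM + 1) of 34 endothelial genes described as Ets targets, by gene in rows, ordered by the mean in RACVECs, and by library in columns, with white lines between groups. Cdh5, Egfl7 and Ecscr are high in all 9 libraries with Ets vectors, whereas Nos3, Tek and Pecam1 are high in the Akt-RACVECs and in the library labelled Sox17-RACVEC 2.

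Blood genes described as targets of Fli1 or Etv2 were not called with the vectors in cells without added Akt. Of 12 such genes 9 were tested. In RACVECs against MACs limma called 0, with 0 at an unadjusted p under 0.05, beside 1.36% of all genes called higher. It also called 0 in Sox17-RACVECs against MACs (1 higher and 0 lower at an unadjusted p under 0.05), beside 3.81% of all genes called higher. At such shares, 0 of 9 does not set these genes apart from all genes. Spi1, Btk, Vav1 and Ptprc, which serve in macrophages and other leukocytes, were listed at 0 in all RACVECs, in which Etv2 and Fli1 were high. In Akt-MACs against MACs 5 of the 9 were called higher, Spi1, Vav1, Ptprc, Btk and Pf4, beside 2.59% of all genes. All but Pf4, a chemokine of platelets, followed the macrophage markers, with Vav1 at 3.13, 117 and 312 FPKM and Ptprc at 4.37, 127 and 306 FPKM in Akt-MAC 1, 2 and 3. The 5 became 0 without Akt-MAC 2, without Akt-MAC 3 or in a fit of the 2 groups alone. In Akt-RACVECs against Akt-MACs 4 of the 9 were called lower, Spi1, Vav1, Ptprc and Btk, beside 13.4% of all genes. Itga2b, the platelet integrin, was called higher there, beside 6.15% of all genes.

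Over the 24 libraries, the genes whose log2(FPKM + 1) was most like that of each factor were ranked by Pearson correlation, as a description, since libraries of a group are not independent points. Most like Erg were Gimap1 (r = 0.97), Ccm2l (0.96), Lyve1 (0.95), Ushbp1 (0.94) and Gimap8 (0.94). Gimap1, a small GTPase of the immune-associated family, was at 0 in MACs and Akt-MACs, 0 to 263 FPKM with Ets vectors and 72.0 to 278 FPKM in ECs, and Lyve1 is a hyaluronan receptor of lymphatic and liver ECs. Most like Fli1 were Scarf1 (r = 0.97), Prkch (0.93), Cd93 (0.93), Hhex (0.93) and Gngt2 (0.92). Scarf1, a scavenger receptor of ECs, was at 102 to 599 FPKM with Ets vectors, 90.8 to 383 in ECs and 0 to 55.4 in MACs and Akt-MACs. Most like Etv2 were Mgat4c (r = 0.84), Timm10b (0.80), Slfn4 (0.80), Apba3 (0.80) and Ifne (0.79). Slfn4, a gene induced by interferon, was at 3.00 to 1372 FPKM with Ets vectors and at most 13.6 FPKM elsewhere. Ifne, which encodes interferon epsilon, was at 15.0 to 146 FPKM with Ets vectors, 0 in MACs and Akt-MACs and 0 to 61.0 in ECs. The members correlated with each other at r = 0.67 for Erg and Fli1, 0.38 for Etv2 and Fli1 and -0.10 for Etv2 and Erg.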

How the data were processed

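Polyadenylated RNA of 24 libraries was sequenced as paired reads of 51 bases. Per the submitters' processing notes and methods, the authors used TopHat for alignment to mm9 and deposited Cufflinks FPKM values per RefSeq transcript, with upper-quartile normalization and bias correction (tool versions are not given in the sources used here). Read counts are not part of these tables, so depth is unknown and no counting interval is given. Each library held 27583 transcripts, 26934 of them with a symbol, and FPKM was summed per symbol to 22282 genes. The summed FPKM was 1689486 to 2317294 per library, and 0 pairs of libraries were identical.

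Values were tested as log2(FPKM + 1) in limma 3.58.1 (R 4.3.3), in 1 fit over 8 groups with a mean-variance trend, for the 14964 genes whose mean FPKM was 1 or more, with Benjamini-Hochberg adjustment over them. A fold on this scale understates the change of low genes. Calls needed an adjusted p under 0.05 together with a log2 difference past 1 or -1. Independently isolated cultures are stated as the replicates of amniotic cells. For the other groups, p-values measure the spread between libraries, which may be technical. On simulated data for RACVECs against MACs over 14964 genes, 79 of 100 genes changed by log2 2 and 97 of 100 changed by log2 4 were called, with 8 unchanged genes called. The changed genes were drawn from those with a mean log2(FPKM + 1) above 5, with normal noise of the same spread in all 8 groups. The simulation therefore does not cover genes near 0 or groups of unequal spread. The Erg to Fli1 ratio was tested by exact permutation in scipy 1.17.1. The named genes are the 3 factors, the nearest measured genes, the 5 genes most correlated with each factor and members of the lists. The members and lists were chosen with earlier results of these data known. Alternatives were other pseudocounts, expression minimums and scaling, fits of only the groups compared, a replicate block, and each library left out. The sequence upstream of 1 gene is not reported here.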

Additional observations from a re-analysis of the deposited data

How the results depend on the processing

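Apart from fits with a library left out, 314 values kept their direction and side of the threshold or stayed within 1.5 times for counts, 20 calls were lost, 4 were gained, 18 counts moved and 1 direction reversed. The causes were not tested. Values below are limma adjusted p-values unless they are called counts. In fits of only the groups compared, which hold fewer libraries, Fli1 in Akt-RACVECs against Akt-MACs was at 0.109, Etv2 in Sox17-RACVECs against MACs at 0.292, Erg in Akt-RACVECs against RACVECs at 0.108, Fli1 in Akt-MACs against MACs at 0.515 and Erg against cultured ECs at 0.153, whereas the Akt effect on Erg with against without Ets vectors came to 0.0333. Counts of endothelial Ets targets there were 4 for RACVECs against MACs, 15 for Sox17-RACVECs against MACs, 1 for Akt-RACVECs against RACVECs and 0 for RACVECs against Akt-LECs, and the blood genes in Akt-MACs against MACs 0. With a pseudocount of 0.1, Erg was at 0.0357 in Sox17-RACVECs against MACs, 0.0723 in Akt-RACVECs against RACVECs and 0.0595 against cultured ECs, Etv2 at 0.0386 in Akt-RACVECs against Akt-LECs, and the target counts were 3 for Akt-RACVECs against RACVECs, 1 for Sox17-RACVECs against RACVECs and 2 for RACVECs against Akt-LECs. With a pseudocount of 10, Fli1 was at 0.0613 in Akt-MACs against MACs and Erg at 0.0441 in RACVECs against Akt-LECs. The target count of Akt-RACVECs against RACVECs was 10 with that pseudocount, 10 when a mean FPKM of 10 or more was required and 3 when libraries were scaled by their median shift, which also reversed Fli1 between Akt-liver ECs and LSECs (0.961). Without Akt-MAC 2 and 3, chosen after seeing the data, Fli1 in Akt-MACs against MACs was at 1.0 and the blood gene count at 0.

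No comparison had all 3 correlations of same-numbered libraries above 0.1, so the numbers were not taken to pair them, although 2 of 3 were above 0.1 in some comparisons (0.571 and 0.366 for numbers 1 and 2 of Akt-LECs and Akt-liver ECs, and 0.318 for each of those numbers of Sox17-RACVECs and Akt-LECs). With a replicate block, in fits of only the groups compared, Etv2 and Fli1 in RACVECs against MACs were both at 0.262, Etv2 and Erg in Akt-RACVECs against Akt-MACs both at 0.0810 and Fli1 at 0.158, Etv2 in Sox17-RACVECs against MACs at 0.352 and Fli1 at 0.120, Erg in Akt-RACVECs against RACVECs at 0.289, Fli1 in Akt-MACs against MACs at 0.569, Etv2 in RACVECs against Akt-LECs at 0.446 and Erg against cultured ECs at 0.108. All 7 list counts were 0 with this replicate block.

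With 1 library left out at a time, 240 values kept direction and side, 32 calls were lost, 5 were gained, 13 counts moved and 10 directions reversed, none of the reversed differences being called. The p of the Erg to Fli1 ratio in the exact permutation test ranged from 0.0140 to 0.0909. Etv2 ranged from 6.70e-09 to 0.0724 in Sox17-RACVECs against MACs, and against Akt-LECs from 0.0143 to 0.0678 in RACVECs, 0.0333 to 0.176 in Akt-RACVECs and 1.02e-08 to 0.687 in Sox17-RACVECs. Erg ranged from 0.00804 to 0.294 in Sox17-RACVECs against MACs, 0.0258 to 0.151 in Akt-RACVECs against RACVECs, 7.48e-05 to 0.819 in Sox17-RACVECs against Akt-LECs and 5.11e-05 to 0.0879 against cultured ECs. Fli1 ranged from 1.78e-06 to 0.0724 in Akt-MACs against MACs and from 0.000426 to 0.379 for the Akt effect with against without Ets vectors. Reversals left Erg between 0.652 and 1.0 in Sox17-RACVECs against RACVECs (0.927 without Sox17-RACVEC 2), at 1.0 between Akt-LECs and Akt-liver ECs and between 0.802 and 0.987 between Akt-liver ECs and LSECs. They left Fli1 between 0.856 and 1.0 in RACVECs and 0.886 and 1.0 in Akt-RACVECs against Akt-LECs, 0.999 and 1.0 between Akt-LECs and Akt-liver ECs, and 0.802 and 1.0 (0.842 without Akt-liver EC 3) between Akt-liver ECs and LSECs. The target counts ranged from 9 to 17 for RACVECs against MACs, 0 to 6 for Akt-RACVECs against RACVECs, 0 to 2 for Sox17-RACVECs against RACVECs and 0 to 5 for RACVECs against Akt-LECs, and the blood gene count from 0 to 5 for Akt-MACs against MACs. With 3 libraries a group and depth unknown, an FPKM listed at 0 cannot be given an upper limit.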
